A study of Drosophila melanogaster x Drosophila simulans with 3 samples.

Results

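The regions described here are exonic regions whose length differed between the D. melanogaster and the D. simulans reference by a number of bases that is not a multiple of 3. They were chosen from the deposited lengths alone, and 7582 of 60040 regions met the rule. Another 49214 regions had equal lengths in both species, and 3244 differed by a multiple of 3 (in-frame differences). No read count entered the choice, and these 7582 regions are called members below.

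Protein-coding sequence is read in codons of 3 bases, so an insertion or deletion of any other length shifts the reading frame of what follows unless it is compensated nearby. Such changes are therefore rare inside coding exons and are better tolerated in untranslated regions and noncoding RNAs. In hybrids both alleles of a region are transcribed in the same nucleus, and the number of reads from each reports their relative abundance, provided that reads of both alleles can be placed equally well. A length difference interrupts the alignment between the species, so the same read can fit one reference and find no place in the other.

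RNA was sequenced from heads of virgin F1 females that had a D. melanogaster mother (strain Berlin) and a D. simulans father (strain C167.4). Flies were reared at 25 °C and frozen at an age of 1 to 1.5 days, and each of 3 independent replicates pooled heads of 200 flies, was sequenced in its own lane as paired ends of 54 bp, and forms 1 library. The libraries form a single group, so alleles were compared inside each library. Because only mothers were D. melanogaster, effects of species and of parent cannot be told apart, and a control of genomic DNA was not used here. The files pair regions with neither genes nor coordinates, so regions are described by length, by length difference and, for a few, by identifier. Whether a region is coding is likewise not stated, and the regions are defined by length difference and not by a shown change of reading frame. Length differences below are D. melanogaster minus D. simulans.

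Most of the length differences were short, and most made the D. melanogaster region the longer one. D. melanogaster was longer in 5601 (73.9%) of the regions and D. simulans in 1981 (26.1%). A single additional base in D. melanogaster was the most frequent difference, in 2001 regions, followed by a single additional base in D. simulans in 1323 regions and by 2 additional bases in D. melanogaster in 1219. Differences of 1 to 2 bases made up 5060 regions, those of 4 to 5 bases 1277, those of 7 to 20 bases 1154 and those of over 20 bases 91. The extremes were 68 bases in favour of D. simulans and 58 in favour of D. melanogaster. Counts fell with size but not smoothly. Of all regions, 1736 differed by 2 bases, 1853 by 3 and 763 by 4, and 514 differed by 5 bases, 732 by 6 and 320 by 7. Differences of 3 and 6 bases thus outnumbered the neighbouring sizes of 2, 4, 5 and 7. This held where D. melanogaster was longer, with 1219, 1561 and 684 regions at 2, 3 and 4 bases, but not where D. simulans was, with 517, 292 and 79. The excess of longer D. melanogaster regions varied with size. At 1 base the counts were 2001 against 1323, and at 4 to 5 bases they were 1165 against 112. At 7 to 20 bases they were 1129 against 25, and above 20 bases 87 against 4.

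**Figure D1:**
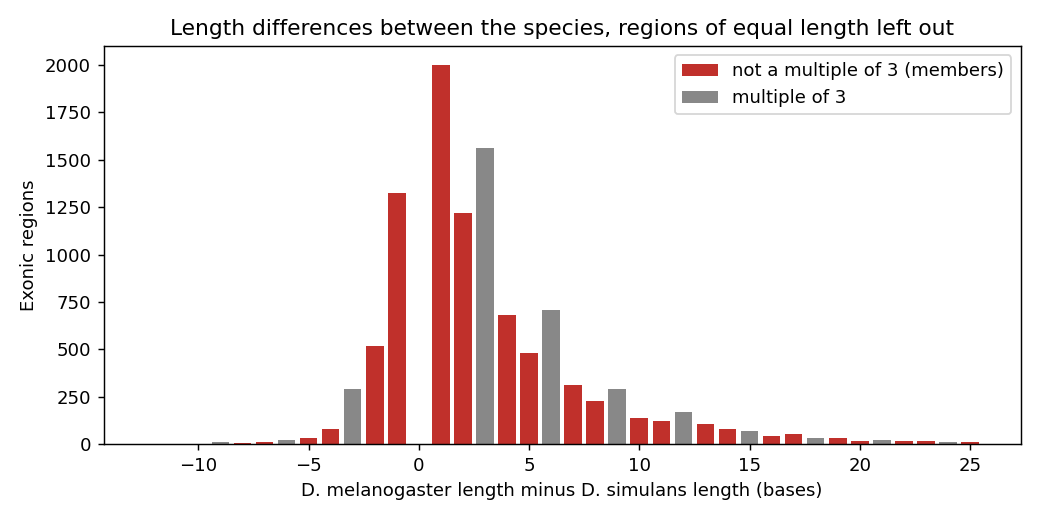
Number of exonic regions (vertical axis) by length difference in bases, D. melanogaster minus D. simulans (horizontal axis, without the few regions beyond its ends), with members in red, multiples of 3 in grey and equal-length regions left out. Counts are highest at 1 base in each direction, 2001 and 1323 regions, and on the D. melanogaster side 3 and 6 bases, 1561 and 709 regions, stand above the sizes next to them.

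Regions with these differences were long, and their sequence had diverged about as far as that of equal-length regions of the same length. Their D. melanogaster length had a median of 641 bases, with quartiles of 345 and 1194 and a range of 9 to 27708. The difference was small beside the length, at a median of 0.358% of it, with quartiles of 0.170% and 0.709%. Median sequence identity between the species was 96.28%, against 96.44% in equal-length regions whose D. melanogaster length lay within 2% of each member's. The identity column does not appear to count the length change in every region, since 42 of the regions were listed at 100% identity. Identifiers that begin with F, a letter that the files do not explain, made up 27.7% of the regions and 12.1% of the length-matched ones. The D. simulans reference had been altered by the authors in 91.0% of the regions against 69.6% of the matched ones, and the D. melanogaster reference in 60.8% against 47.1%. The comparison regions were thus alike in length and close in identity, but not in how often the references had been changed. Among regions with enough reads for a ratio the identities lay further apart, at 96.31% in members and 96.65% in matched regions.

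Reads from these regions were plentiful. The regions held 6516463, 6433880 and 6713010 allele-assigned reads in replicates 1, 2 and 3, which was 35.6%, 35.4% and 33.0% of all assigned reads. A few regions dominated these totals, as the 10 regions with the most reads held 40.9%, 39.8% and 35.5% of them. A mean of at least 20 assigned reads per library, the limit for a ratio, was reached by 6396 regions (84.4%), against 62.5% of equal-length regions matched on length. Of the 1186 regions below the limit, 147 had no read at all. No read at all was seen in 1.94% of the regions and in 10.1% of the length-matched ones. Members that pass this limit are the more abundant ones, so what follows describes 6396 regions and not all 7582.

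In reads summed over regions more came from D. melanogaster, but the excess in the sum of these regions was smaller than in that of equal-length regions. The D. melanogaster share of their assigned reads was 53.1%, 53.7% and 52.8% in replicates 1, 2 and 3, with 95% exact binomial intervals of 53.1% to 53.2%, 53.6% to 53.7% and 52.7% to 52.8%. The mean was 53.2% ± 0.458 (SD, n = 3). In equal-length regions the share was 55.3%, 54.8% and 54.2%, or 54.8% ± 0.551 (SD, n = 3). Both shares come from the same 3 libraries, and in each of them the share of equal-length regions was the higher one. Leaving out the 10 members with the most reads gave 52.2%, 52.1% and 52.0%, and this was not done for equal-length regions. These sums weigh regions by their reads. The median ratio per region, given below, was higher in the members than in equal-length regions. Intervals and count limits given here cover counting error only, since the reads carried no molecular identifiers.

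The typical region leaned slightly to D. melanogaster in unscaled read numbers, in each library. The median log2 ratio of D. melanogaster to D. simulans reads over the 6396 regions was 0.134, 0.120 and 0.112 in the 3 libraries, or 0.122 ± 0.011 (SD, n = 3). Over all tested regions of the series it was 0.094 ± 0.008, and over equal-length regions matched on length it was 0.079 ± 0.005. The lean depended on scaling, as the median fitted log2 ratio of the members was 0.119 unscaled, 0.027 with TMM scaling and 0.024 with DESeq2 size factors. The difference from the matched regions was 0.050, 0.041 and 0.039, or 0.043 ± 0.006 (SD, n = 3), so it was positive in 3 of 3 libraries and larger than its spread. The exact sign-flip test gave a two-sided p of 0.25, the smallest that 3 libraries allow. The difference was 0.051 ± 0.007 in members longer in D. melanogaster and 0.022 ± 0.015 in those longer in D. simulans (SD, n = 3). Among the latter it was 0.014 ± 0.018 at 1 to 2 bases (1518 regions). At 4 to 5 bases it was 0.104 ± 0.044, over only 88 regions. In-frame differences gave a median of 0.113 ± 0.008. The regions with other differences exceeded this by 0.009 ± 0.010 (SD, n = 3; exact sign-flip p = 0.5), less than the spread between libraries, and the in-frame regions were not matched on length here.

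Allelic imbalance was called in 2821 of the 6396 regions (44.1%), where 35.6% of all tested regions of the series were called by the same rule, an adjusted p under 0.05 in edgeR's quasi-likelihood test. D. melanogaster reads were in excess in 1953 regions (30.5%, background 23.4%) and D. simulans reads in 868 (13.6%, background 12.2%). Against length-matched equal-length regions the shares called were 44.1% and 36.4%, a difference of 7.65 percentage points. Calls toward D. melanogaster made up this difference, at 30.6% against 22.8%, and calls toward D. simulans did not, at 13.5% against 13.7%. Read depth and divergence moved with it. The regions had a median of 210 assigned reads per library and the matched regions 166.7. Where length, depth and identity were all matched, 42.9% and 40.1% were called, a difference of 2.82 points. The difference in median ratio stayed at 0.043 ± 0.006 (SD, n = 3) under that matching. The split between species depended on scaling, as D. melanogaster took 69.2% of the calls in unscaled read numbers and 56.3% after TMM scaling of the allele columns, which moved the median fitted log2 ratio of the series from 0.087 to -0.005.

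Most of these imbalances were small. The median absolute log2 ratio was 0.30 over the tested regions and 0.57 over the called ones. A called ratio of at least 2-fold was found in 594 regions (9.29%, background 9.8%). Of these, 414 lay toward D. melanogaster (background 6.91%) and 180 toward D. simulans (background 2.89%). The shares lay near the background. Against equal-length regions matched on length the share was 9.3% and 8.35%, with depth matched too 9.32% and 7.6%, and with identity matched as well 8.98% and 9.1%. All 3 libraries gave the same direction in 4005 regions (62.6%), against 56.0% of all tested regions. In DESeq2's Wald test 1058 D. melanogaster and 435 D. simulans excesses were called, and in edgeR without the replicate block 1341 and 543. An edgeR test against a minimum log2 ratio of 0.5 called 555 and 222.

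In-frame differences went with a called share nearly as high, since 1187 of 2794 tested in-frame regions (42.5%) were called. By size, 43.2% of regions that differed by 1 base, 43.6% by 2 and 39.8% by 3 were called. The shares were 44.6% by 4, 41.1% by 5, 42.5% by 6, 42.9% by 7 and 48.8% by 8. At 9 and 10 bases they were 44.6% of 269 and 48.4% of 124 tested regions. The shares at 3 and 9 bases lay below those of both neighbouring sizes, and the share at 6 bases lay between its neighbours. Length and depth were not matched between sizes. The remainder after division by 3 did not separate the members. Of those with a remainder of 1, 1758 of 3987 were called, and of those with a remainder of 2, 1063 of 2409, 44.1% each. Differences of over 20 bases were called in 50 of 84 regions (59.5%), but their median was 855 assigned reads per library, and the part of depth in this share was not tested. Over both directions of length difference, called ratios of 2-fold or more became rarer with size. They fell from 11% at 1 to 2 bases to 7.31% at 4 to 5, 5.22% at 7 to 20 and 3.57% above 20 bases, while median length rose from 595 to 830, 1170 and 2290 bases. Where D. simulans was longer they did not fall, at 12.1% of 1518 regions, 13.6% of 88 and 25% of 20 in the first 3 of these sizes. Across the 6396 regions Spearman's rho between the absolute length difference and the absolute log2 ratio was -0.08, a description only, because the regions share libraries and long regions hold both more reads and larger differences.

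How reads were assigned set these regions apart more than their ratios did. An assigned read was either placed on the genome of one species only, or placed on both and better on one. The median region had 47.7%, 42.3% and 46.4% of its assigned reads placed on one genome only in replicates 1, 2 and 3, or 45.5% ± 2.86 (SD, n = 3). Length-matched equal-length regions had 33.3%, 27.1% and 33.3%, or 31.2% ± 3.60. In each of the 3 libraries the value of the members lay above that of the matched regions. The difference was 14.2 ± 1.03 points (SD, n = 3; exact sign-flip p = 0.25, the smallest possible), and 11.2 ± 1.28 points when depth and identity were matched too. In-frame regions had 43.3% ± 3.06, which was 2.24, 2.46 and 1.87 points below in the 3 libraries. They were longer, at a median of 902 bases among tested regions against 730, and this was not corrected for.

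The share placed on one genome rose with the size of the difference relative to the region. Where the difference was at most 0.1% of the length, 38.4% ± 2.98 of assigned reads were placed on one genome only, against 32.5% ± 3.74 in matched regions (SD, n = 3). Between 0.1% and 0.3% the shares were 41.5% and 31.4%, and between 0.3% and 1% they were 49.0% and 30.6%. Above 1% the regions reached 57.7% ± 2.43 and the matched regions 30.2% ± 3.77. The matched level therefore hardly moved while the level of the regions rose by steps, and the difference between them widened from 5.86 ± 0.912 to 27.5 ± 1.68 points. Across the 6396 regions the relative length difference and the share had a Spearman's rho of 0.31, given as a description.

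**Figure D2:**
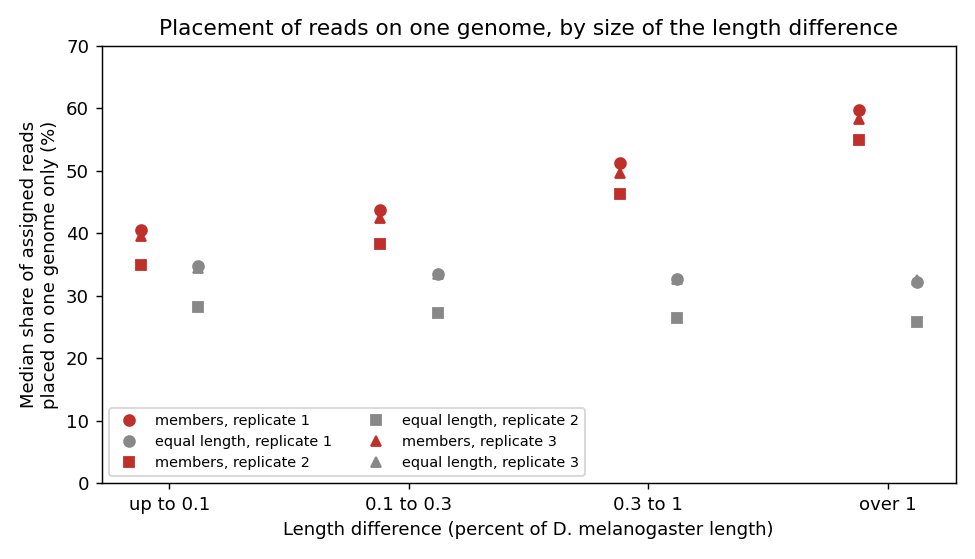
Median percent of allele-assigned reads placed on one genome only (vertical axis) by length difference as a percent of D. melanogaster length (horizontal axis), for regions with a length difference not a multiple of 3 (members, red) and for equal-length regions matched on length (grey). Points are the 3 libraries, and the gap between their means widens from 38.4% against 32.5% to 57.7% against 30.2%.

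Among classes of sequence identity, the contrast was widest where the sequences were otherwise nearly identical. Of regions with over 99% but under 100% identity, 108 were tested, and 37.3%, 35.6% and 36.5% of their assigned reads were placed on one genome only, or 36.4% ± 0.858 (SD, n = 3). In the 1002 equal-length regions of that identity the median was 2.22%, 2.27% and 2.72%, or 2.41% ± 0.275. At 97% to 99% identity the shares were 34.4% ± 2.27 and 14.6% ± 2.17, and at 95% to 97% they were 44.8% and 36.0%. At up to 93% identity they were 74.8% and 77.1%, and the length difference no longer came with a higher share. Short regions gave a wider contrast in percentage points, with 69.1% in 436 tested regions of under 200 bases against 18.0% in 6803 equal-length ones. Called shares differed too, with 33 of 108 (30.6%) called above 99% identity against 18.3% of equal-length regions, and 59.3% against 53.8% at up to 93%. The classes of identity were matched on neither length nor depth, and above 99% identity the median was 138 assigned reads per library in the members and 51.3 in equal-length regions.

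**Figure D3:**
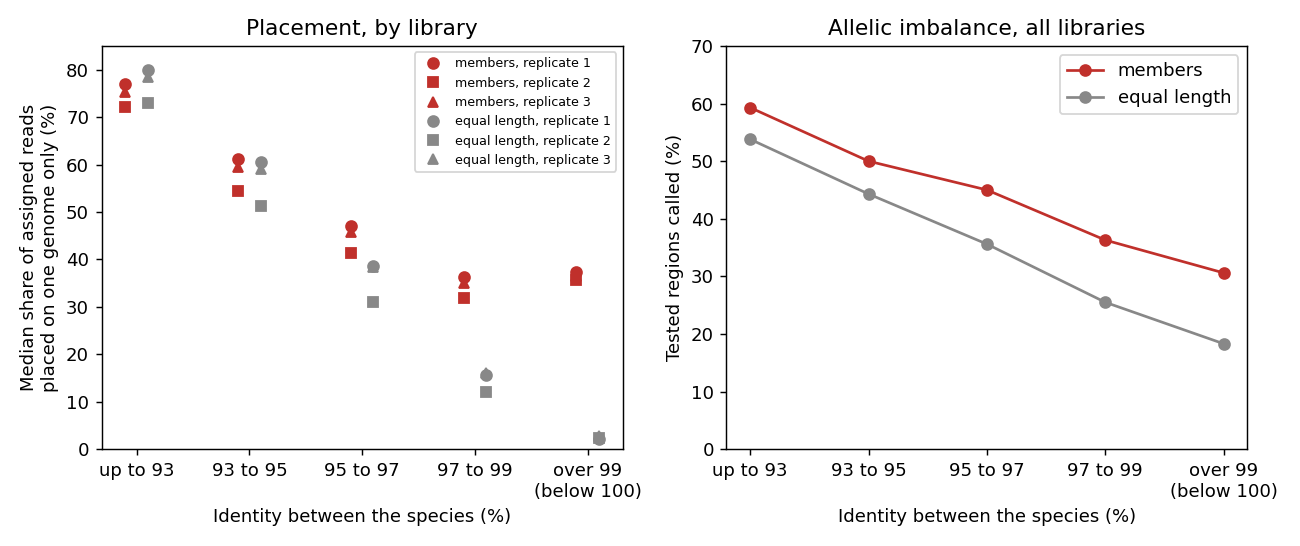
Left, median percent of allele-assigned reads placed on one genome only (vertical axis) and right, percent of tested regions called (vertical axis), by class of sequence identity between the species in percent (horizontal axes), for regions with a length difference not a multiple of 3 (members, red) and for equal-length regions (grey). On the left, points are the 3 libraries, and the sets part above 95% identity, to means of 36.4% against 2.41% above 99%.

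The kinds of read gave like directions with different sizes. From reads placed on one genome only, 2470 of 5738 regions were called (43.0%, background 38.4%), 1750 of them toward D. melanogaster (background 26.6%) and 720 toward D. simulans (background 11.8%). From reads placed on both, 1745 of 5500 were called (31.7%, background 26.0%), 1144 toward D. melanogaster (background 15.4%) and 601 toward D. simulans (background 10.6%). The median log2 ratio was 0.167 ± 0.013 from the first kind and 0.074 ± 0.010 from the second (SD, n = 3), against 0.105 ± 0.008 and 0.036 ± 0.006 in matched regions. These medians include regions with few or no reads of a kind, whose ratio lies at or near 0. Among regions with enough reads of a kind for a test, the excess over matched regions was 0.042 ± 0.009 by the first kind and 0.037 ± 0.005 by the second, a gap within the spread. Of 1112 regions called with each kind, 1028 had the same direction and 84 (7.55%) opposite ones. The opposite share was 8.64% in equal-length regions and 6.71% in in-frame regions. In 45 of the 84, the reads placed on one genome leaned to the longer species, close to an even split.

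Which species had the longer region was linked to the ratio only weakly. Where D. melanogaster was longer, the median log2 ratio was 0.141, 0.127 and 0.117 in the 3 libraries, or 0.128 ± 0.012 (SD, n = 3). Where D. simulans was longer it was 0.120, 0.087 and 0.103, or 0.103 ± 0.016. The first exceeded the second in each library, by 0.020, 0.040 and 0.014. The mean difference was 0.025 ± 0.013 (SD, n = 3), with an exact sign-flip p of 0.25, the smallest possible. In reads per base of each allele's own length it was 0.012 ± 0.015 (exact sign-flip p = 0.5), smaller than its spread. The direction differed between sizes, but few regions that differed by over 2 bases were longer in D. simulans. At 1 to 2 bases the difference was 0.042 ± 0.012, over 2624 and 1518 regions. At 4 to 5 bases it was -0.049 ± 0.025 over 1048 and 88 regions, and at 7 to 20 bases -0.083 ± 0.043 over 1014 and 20. In unscaled read numbers both classes leaned to D. melanogaster at every one of these sizes. Scaling was not tried for these medians, and TMM scaling moved the median fitted log2 ratio of the series to -0.005. Whether either class leans to a species after scaling was therefore not tested. By reads placed on both genomes alone the difference over all sizes was 0.009 ± 0.002, and by reads placed on one genome it was 0.035 ± 0.011. At 4 to 5 and 7 to 20 bases the first kind gave -0.123 ± 0.017 and -0.087 ± 0.101. One-genome reads gave -0.031 ± 0.068 and -0.033 ± 0.035 (exact sign-flip p = 0.5 each), with 0.048 in replicate 3 and 0.007 in replicate 2. An SD over libraries does not cover the spread between so few regions, so a dependence on size was not shown. Spearman's rho between the log2 length ratio and the log2 read ratio was 0.03 over 6396 regions.

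Calls differed little between these classes. Where D. melanogaster was longer, 2094 of 4768 regions (43.9%) were called, 31.1% toward D. melanogaster and 12.8% toward D. simulans. Where D. simulans was longer, 727 of 1628 (44.7%) were called, 28.8% and 15.8%. In equal-length regions matched on length to the first class, 22.9% and 13.8% were called toward D. melanogaster and D. simulans. For the second class the matched shares were 22.2% and 13.1%, so its calls lay above them in both directions. Ratios of at least 2-fold were called in 8.24% of the first class and 12.3% of the second. The second class was shorter, at a median of 578 bases against 795, with 182 against 223 assigned reads per library, and the part of length and depth in the difference was not tested.

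**Figure D4:**
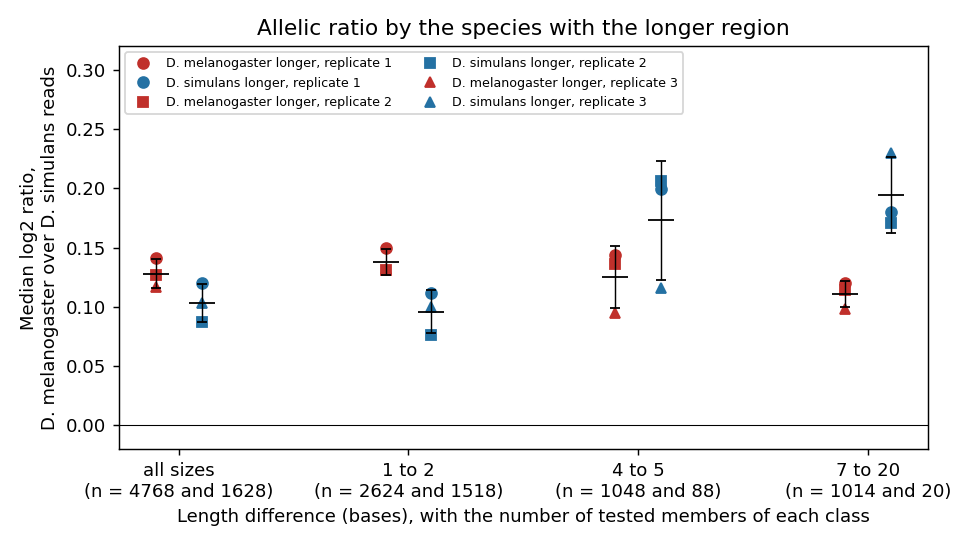
Median log2 ratio of D. melanogaster to D. simulans reads over tested regions (vertical axis) by size of the length difference in bases (horizontal axis), for regions longer in D. melanogaster and regions longer in D. simulans, with points for the 3 libraries and bars for mean and SD, and the number of tested regions of each class under the axis. At 1 to 2 bases the class longer in D. melanogaster is higher, 0.138 against 0.096, and at 4 to 5 and 7 to 20 bases the other class is higher, with few regions in it.

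The largest imbalances toward D. melanogaster came from regions with small length differences. S18288_SI, of 528 bases in D. melanogaster and 530 in D. simulans, had 766, 814 and 702 D. melanogaster reads against 13, 16 and 14 D. simulans reads. The D. melanogaster share was 98.1% ± 0.158 (SD, n = 3), and the log2 ratio 5.72 ± 0.14 (SE; edgeR adjusted p = 4.2e-201). Reads of this region placed on one genome only were 99.9% D. melanogaster, and those placed on both were 79.0% ± 9.05. The direction was therefore shared, but the size rested on reads with no place on the D. simulans genome. A region of 2311 bases, 2 bases longer in D. melanogaster, had 12775, 13799 and 16110 D. melanogaster reads against 929, 1069 and 1041. Its share was 93.3% ± 0.567 and its log2 ratio 3.81 ± 0.05 (SE), and both kinds of read gave nearly the same share, 94.1% and 93.1%. Here the imbalance did not depend on how reads were placed. The other 3 of the 5 with the largest ratios differed by 1 base, were 265, 308 and 473 bases long, and had shares of 92.6% to 94.1%. In each of these the share was at least 97.8% by reads placed on one genome and 73.6% to 87.0% by reads placed on both.

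Toward D. simulans, the largest ratio was that of S49452_SI, of 734 bases in D. melanogaster and 735 in D. simulans. It had 20, 21 and 19 D. melanogaster reads against 558, 470 and 640 D. simulans reads, a D. melanogaster share of 3.54% ± 0.700 (SD, n = 3). The log2 ratio was -4.79 ± 0.14 (SE; edgeR adjusted p = 2.0e-157), and the kinds of read gave similar shares, 3.17% and 4.21%. In a region of 321 bases, 1 base longer in D. melanogaster and 88.75% identical, the kinds parted. The D. melanogaster share was 6.80% ± 0.660 in all, 0.199% by reads placed on one genome and 36.1% ± 1.50 by reads placed on both. The other 3 of the 5 were 1264, 1029 and 1001 bases long and differed by 1 base, with shares of 4.64% ± 1.17, 5.75% ± 1.83 and 5.82% ± 1.63. They were listed at 98.81%, 97.47% and 99.9% identity. Unassigned reads were absent from the first in every library, and numbered 45, 47 and 30 in the second and 15, 0 and 2 in the third. Tested members of over 97% to 99% identity, the class of the first 2 of these regions, had a median unassigned share of 31.6% ± 0.34. In the class of the third, over 99% but under 100% identity, it was 56.7% ± 1.28 (SD, n = 3). The cause of the low unassigned counts was not tested. At least 98.8% of the assigned reads of these 3 regions were placed on one genome only, so the second kind gave no ratio there. In the 1029-base region, assigned reads that matched their reference exactly had a mean under 20 per library.

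**Figure D5:**
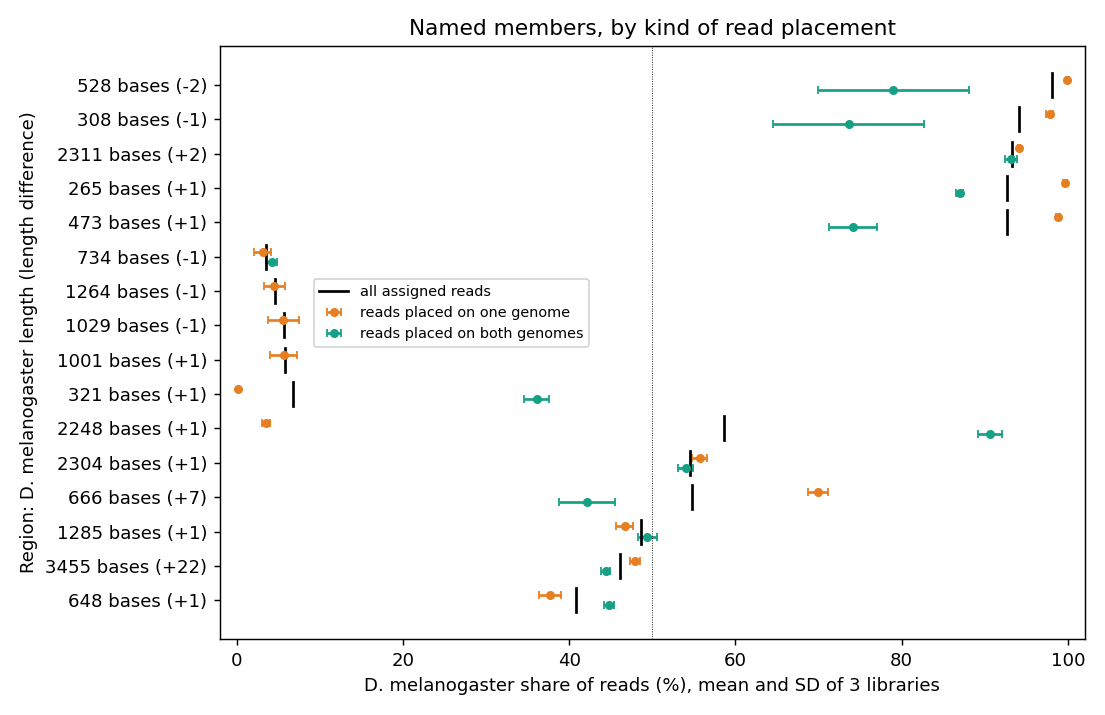
D. melanogaster percent of assigned reads (horizontal axis) in named regions (rows, given by D. melanogaster length and length difference in bases), for all assigned reads (black ticks, mean of 3 libraries) and for reads placed on one genome only and on both (points with bars, mean and SD of 3 libraries). A kind with fewer than 100 reads in a region is not drawn, and the kinds lie together in the 2311-base and 734-base regions and far apart in the 2248-base and 321-base regions.

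Regions with the most reads showed small ratios, some of which combined opposed components. F19_SI, of 2248 bases in D. melanogaster and 2247 in D. simulans, had 898246, 766452 and 669815 D. melanogaster reads against 664590, 499876 and 488781. Its D. melanogaster share was 57.5%, 60.5% and 57.8%, and the log2 ratio 0.50 ± 0.02 (SE; edgeR adjusted p = 2.7e-83). The adjusted p was 9.0e-08 in DESeq2's Wald test and 0.0079 in edgeR without the replicate block. Of its reads placed on one genome only D. melanogaster had 3.53% ± 0.465, and of those placed on both 90.6% ± 1.43 (SD, n = 3), so the components pointed in opposite directions. A region of 666 bases, 7 bases longer in D. melanogaster, had shares of 55.0%, 52.8% and 56.7%. It also split, into 69.9% ± 1.2 by reads placed on one genome and 42.1% ± 3.37 by reads placed on both. By contrast, a region of 2304 bases, 1 base longer in D. melanogaster, had 54.5% ± 0.901 in all, 55.7% and 54.0% by kind.

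On the D. simulans side, S14812_SI, of 1285 bases in D. melanogaster and 1284 in D. simulans, had D. melanogaster shares of 47.3%, 49.2% and 49.3%. Its log2 ratio was -0.08 ± 0.03 (SE; edgeR adjusted p = 0.0051). Without replicate 1 the edgeR adjusted p was 0.40, so the call rested on that library, and the alternatives as a whole spanned adjusted p-values from 8.7e-11 to 1.0. A region of 3455 bases that was 22 bases longer in D. melanogaster had 46.1% ± 0.661 D. melanogaster reads (SD, n = 3), at -0.23 ± 0.03 on the log2 scale (SE). A region of 648 bases with 1 additional D. melanogaster base had 40.8% ± 0.629 and -0.54 ± 0.03. In exact-match reads alone the ratio of this region was reversed, at 0.62. The 3 regions with the most reads among those not called were 6024, 1036 and 5132 bases long and differed by 4 bases. Shares in the first were 49.0%, 56.7% and 44.8%, so its direction changed between libraries, and it would be called toward D. simulans without replicate 2 (-0.18) and toward D. melanogaster without replicate 3 (0.17). For this region 99.5% of the assigned reads were placed on one genome only. The others lay at 50.8% ± 0.654 and 51.3% ± 0.281.

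Of the 6 tested regions with the largest length differences, 3 in each direction, none had a ratio of 2-fold or more. Among all 84 tested regions that differed by over 20 bases, 3 were called at 2-fold or more, and the log2 ratios ran from -6.47 to 1.00. The region with 58 additional D. melanogaster bases, of 3049 bases, had D. melanogaster shares of 56.4%, 51.2% and 50.4% and was not called (log2 ratio 0.16 ± 0.07 SE; edgeR adjusted p = 0.073), though it was by exact-match reads alone (0.37, edgeR adjusted p = 0.00018), by reads placed on both genomes (0.27, edgeR adjusted p = 0.04) and without replicate 3 (0.22, edgeR adjusted p = 0.046). A region of 8124 bases with 46 additional D. melanogaster bases was not called either, at 0.11 ± 0.08 (edgeR adjusted p = 0.30). A region of 2299 bases with the same difference leaned to D. simulans, with shares of 42.6%, 42.2% and 40.7% and a log2 ratio of -0.48 ± 0.10 (edgeR adjusted p = 4.3e-05). Where D. simulans was longer by 29 and 25 bases, the D. melanogaster shares were 44.5% ± 2.44 and 42.8% ± 2.30 (SD, n = 3), both called. The second of these, of 300 bases, had 34.9% by reads placed on one genome and 50.3% by reads placed on both, and the call was absent from the second kind. A region longer by 20 bases in D. simulans had 63 D. melanogaster and 33 D. simulans reads in all, a log2 ratio of 0.94 ± 0.37 (edgeR adjusted p = 0.032), and was not called without replicate 2 (0.70) or without replicate 3 (0.86). The region with a difference of 68 bases had too few reads for a ratio.

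Nearly complete imbalance was rarer than in equal-length regions on the D. melanogaster side. At least 98% of assigned reads came from 1 species in 25 tested regions (0.391%), 11 from D. melanogaster and 14 from D. simulans. After matching on length the D. melanogaster side was 0.172% against 0.517%, and the D. simulans side 0.219% against 0.195%. In 17 of the 25, over 90% of assigned reads were placed on one genome only. No D. simulans read was seen in 6 of the tested regions and no D. melanogaster read in 8. With D. melanogaster reads alone, a region of 211 bases had 99, 97 and 101 of them. Against a floor of 3 counts, summed over the libraries, this is at least 99-fold higher, but the region also had 262, 267 and 264 unassigned reads that fitted both species equally. A region of 633 bases had 58, 38 and 65 D. melanogaster reads, at least 53.7-fold higher, and 40, 43 and 48 unassigned reads. With D. simulans reads alone, a region of 177 bases had 676, 660 and 594 of them and no unassigned read, which by that floor is at least 643-fold higher. A region of 506 bases had 33, 81 and 51 D. simulans reads, at least 55.0-fold higher, though its sequence was listed at 100% identity. This region had no unassigned read in any library, and all its assigned reads were placed on one genome only. The cause was not tested.

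Some of the largest ratios stood close together in the numbering of the regions. The 25 tested regions with adjoining identifier numbers that held the most called ratios of at least 2-fold, chosen after the values were seen, ran from number 32392 to 32517. Large ratios were what chose the stretch, so they are a description of it only. It contained 12 tested members, 10 called toward D. simulans and 2 toward D. melanogaster, and their absolute log2 ratios had a median of 4.47. In 10 of the 12 over 95% of assigned reads were placed on one genome only. The stretch also held 10 tested equal-length and 3 tested in-frame regions, all called at 2-fold or more, against 10 of the 12 members. Their median absolute log2 ratios were 6.20 and 10.47, so the large ratios there were not particular to members. The stretch held 1 of the 5 largest ratios toward D. simulans, that of 1264 bases, and 1 of the 2 regions described with no D. melanogaster read. The regions of 1029 and 1001 bases, also among those 5, had numbers just past its end. The files give no position for these numbers, so whether the regions adjoin in the genome was not tested. Leaving the stretch out moved the calls to 1951 and 858.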

How the data were processed

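The deposited tables held raw counts of reads per exonic region in 10 match classes, per the file headers, 1 table for each of 3 libraries. The authors also gave percent identity between the species and, for either strain, the percent of reference positions they had altered. They further gave region lengths and a coverage signal of unstated origin, per the file headers. The median log2 ratio of D. melanogaster to D. simulans coverage was -0.49 in members and -0.77 in equal-length regions. Its sign was thus opposite to that of the median read ratios, and the cause was not tested. As the origin of the coverage signal is unstated, no comparison given above used it. The submitters' processing notes name Bowtie as aligner. Version, build, annotation, mismatch limits and the treatment of gaps are not stated in the sources at hand.

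The 4 classes of each allele were summed, and reads in the 2 classes that fit both species equally were unassigned. Regions with a mean of at least 20 assigned reads per library were tested, over the whole table of 33303 regions, with edgeR 4.0.16 (R 4.3.3), quasi-likelihood F test, on 6 allele columns. Replicate was the block, since the alleles of a library were read from 1 RNA pool, and they shared 1 library size with no scaling. The Benjamini-Hochberg adjusted p ran over all tested regions, with a threshold of 0.05. A region had 2 residual degrees of freedom against a median of 776 prior ones, so its error came mainly from the pooled spread of all regions. Library ratios used a pseudocount of 0.5. DESeq2 1.42.0 was an alternative. The procedure was tested on simulated counts with the same spread for all regions and no bias in read placement. That simulation does not cover regions whose libraries disagree or whose alleles were placed unequally. Each tested region was set beside all tested equal-length regions with a D. melanogaster length within 2% of its own, and their values were averaged; 6385 regions had such partners, a median of 257 each, and 11 had none. The sign-flip p-values measure only the spread between 3 pools, and the edgeR p-values mainly that pooled spread. A small edgeR p therefore does not show that the libraries agreed closely within a region. With 3 libraries an exact sign-flip test cannot go below 0.25.

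The regions and the rules were chosen with earlier results of these data known. Regions named were the 5 largest called ratios per direction with the same direction in 3 libraries, 100 or more assigned reads and 4 or more of either allele in every library. Also named were the 3 called regions per direction and the 3 uncalled ones with the most reads, the 3 tested with the largest length difference per sign, and, per direction, the 2 most read without any read of the other allele. Alternatives changed the read minimum (5, 50), the pseudocount, the classes of reads, the scaling, the test, the block, the length matching and the libraries used. The files pair identifiers with no gene, position or sequence, so none is printed.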

Additional observations from a re-analysis of the deposited data

Results flagged for a closer look

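Unassigned reads entered no comparison of the alleles. In 1 region with a length difference not a multiple of 3 they were nearly the only signal, with a mean of at least 20 unassigned and under 1 assigned read per library. This region had 242 bases in D. melanogaster and 243 in D. simulans and an identity of 97.52%. It had 31, 40 and 34 unassigned reads in replicates 1, 2 and 3 and 1 assigned read in all. Among equal-length regions the same was seen in 1072 of 49214 (2.18%), of which 1021 were listed at 100% identity.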

How the results depend on the processing

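Scaling was tried for the counts of calls and not for the class medians; it turned the median ratio of all tested regions from 0.087 to -0.005 (TMM) and -0.008 (DESeq2 size factors). The comparisons refitted under the alternatives kept their direction, and the following values moved. Reads placed on both genomes alone gave 1144 calls toward D. melanogaster, median ratios of 0.084 and 0.072 where D. melanogaster and D. simulans were longer, and differences from matched regions of 3.88 points in called share and 0.037 in ratio. Reads placed on one genome alone gave 0.175, 0.137, 9.36 points and a ratio difference of 0.042. Exact-match reads gave 0.160, 0.124 and a ratio difference of 0.060. The difference in called share was 5.52 points with TMM scaling, 5.45 with DESeq2 size factors, 5.91 in DESeq2's Wald test, 2.32 against a minimum log2 ratio of 0.5, 5.48 with depth matched and 2.82 with identity matched too. DESeq2 called 1058 and 435 regions and the minimum ratio 555 and 222. Without the replicate block, which pairs the alleles of 1 pool, 1341 and 543 were called. Leaving out each replicate gave 1551 to 1609 and 658 to 669 calls, medians of 0.122 to 0.134 and 0.093 to 0.112, a difference between these classes of 0.017 to 0.035, and differences from matched regions of 6.76 to 7.03 points and 0.038 to 0.045. In reads per base the difference between these classes was 0.012. The cause of these movements was not tested.

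For 29 named regions, alternative fits gave 348 results with the same direction and call, 26 that lost the call, 5 that gained it and 13 that reversed. Reversals were F19_SI by one-genome reads (-4.78), the 666-base region by reads on both (-0.46) and exact matches (-0.42), the 648-base region by exact matches (0.62) and the 300-base region by reads on both (0.02). Those of uncalled regions were the 6024-base region by exact matches (-0.38), without replicate 2 (-0.18, against 0.17 without replicate 3) and with either scaling (-0.08), and the 1036-base and 5132-base regions with TMM (-0.04, -0.02) and DESeq2 size factors (-0.05, -0.02). Depth limited small ratios, as the median standard error was 0.35 at 20 to 50 assigned reads per library and 0.06 at 1000 or more.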

Other observations

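Unassigned reads, which fitted both references equally, made up 35.3%, 34.0% and 34.1% of the reads of regions with a length difference not a multiple of 3. Per region the median share was 18.1% ± 0.354 (SD, n = 3), and 17.9% ± 0.267 in length-matched equal-length regions. With depth and identity matched as well the shares were 18.5% ± 0.417 and 15% ± 0.256, a difference of 3.49 ± 0.163 points, positive in 3 of 3 libraries (exact sign-flip p = 0.25, the smallest possible). Under that matching the members thus had higher shares than the equal-length regions both of reads placed on one genome and of unassigned reads.

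Regions with identifiers that begin with F were called in 45.6% of 1923 tested cases and those that begin with S in 43.5% of 4473. Their medians of assigned reads per library were 292 and 186, and their median lengths 980 and 631 bases. Log2 ratios of single regions correlated between libraries with Spearman's rho of 0.66 to 0.67 across the 6396 tested regions, which share libraries and are not independent replicates.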
